A study of Mus musculus with 18 samples.

Results

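The unfolded protein response genes described here are the 10 genes Hspa5, Hsp90b1, Xbp1, Atf4, Ddit3, Herpud1, Dnajb9, Sdf2l1, Pdia4 and Creld2, found by gene name in the deposited count table. They fill 11 of its 55416 rows, because Ddit3 has 2 identifiers, and all 11 rows passed the filter on low counts, which kept 17040 genes. The RNA was taken on day 3 from splenic monocytes isolated by cell sorting, with 18 mice that the design text of the series calls independent. Mice of 3 genotypes, C57BL/6 (WT), Dectin-1 -/- (Dectin-1 knockout) and FcgRIIb-/- (FcgRIIb knockout), were given phosphate-buffered saline (PBS) or intravenous immunoglobulin (IVIg, immunoglobulin G pooled from many donors), with 3 mice in each of the 6 groups WT PBS, WT IVIg, Dectin-1 knockout PBS, Dectin-1 knockout IVIg, FcgRIIb knockout PBS and FcgRIIb knockout IVIg. Clec7a encodes Dectin-1, through which myeloid cells bind fungal beta-glucans, and Fcgr2b encodes FcgRIIb, an Fc receptor that dampens activating signals. The labels used here do not give the age of the mice, the dose of IVIg or the alleles behind the knockouts, and they do not describe a cell-type-restricted deletion.

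The unfolded protein response adjusts the folding capacity of the endoplasmic reticulum (ER) to the load of new secreted and membrane proteins. The sensors IRE1, PERK and ATF6 sit in the ER membrane, bound by the chaperone BiP while the load is low. Active IRE1 splices the Xbp1 message into the form that encodes the XBP1 transcription factor, PERK slows translation while it favours translation of Atf4, and ATF6 is cut to release a transcription factor. Their targets include ER chaperones, enzymes of disulfide bonding and the machinery that removes misfolded proteins. In monocytes and macrophages the same chaperones fold Toll-like receptors and integrins, and immunoglobulin-secreting plasma cells are the textbook example of cells that rely on this pathway.

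The DNA elements through which these factors act are among the best defined of any stress response, so the 300-base windows around the start sites (250 bases before and 50 after, RefSeq, GRCm38.p6) were searched on both strands for 4 of them. All 10 genes had a window. The ER stress response element (ERSE) was taken as CCAAT, 9 bases of any kind and CCACG, and ERSE-II as ATTGG, 1 base of any kind and CCACG; both are bound by ATF6 together with NF-Y. The core of the unfolded protein response element (UPRE) was taken as TGACGTG, and the composite element of C/EBP and ATF proteins, which ATF4 can occupy, as TGATG, 1 base of any kind and AA. ERSE stood in 39 of 32851 windows of all genes (0.119%), ERSE-II in 12 (0.0365%), the UPRE core in 661 (2.01%) and the composite element in 1304 (3.97%). The 4 windows that hold a match are printed 5′ to 3′ on the strand of the gene, with each match in capitals:
Hspa5: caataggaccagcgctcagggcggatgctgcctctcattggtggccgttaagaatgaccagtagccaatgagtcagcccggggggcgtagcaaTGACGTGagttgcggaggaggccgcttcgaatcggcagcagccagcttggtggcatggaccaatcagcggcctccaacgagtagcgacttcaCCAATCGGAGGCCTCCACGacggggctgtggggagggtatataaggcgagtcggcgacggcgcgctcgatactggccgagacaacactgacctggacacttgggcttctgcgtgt
Hsp90b1: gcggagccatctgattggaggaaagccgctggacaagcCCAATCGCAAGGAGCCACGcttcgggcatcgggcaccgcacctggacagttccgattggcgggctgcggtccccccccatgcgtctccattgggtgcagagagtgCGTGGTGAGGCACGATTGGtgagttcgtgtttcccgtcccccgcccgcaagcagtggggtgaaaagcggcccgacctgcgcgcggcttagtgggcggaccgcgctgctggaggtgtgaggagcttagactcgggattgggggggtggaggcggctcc
Creld2: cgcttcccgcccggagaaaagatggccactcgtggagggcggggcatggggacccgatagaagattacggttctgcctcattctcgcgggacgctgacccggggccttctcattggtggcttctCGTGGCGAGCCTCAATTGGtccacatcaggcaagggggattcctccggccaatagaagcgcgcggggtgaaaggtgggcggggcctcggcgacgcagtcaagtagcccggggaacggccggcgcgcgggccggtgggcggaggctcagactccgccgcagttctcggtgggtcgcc
Herpud1: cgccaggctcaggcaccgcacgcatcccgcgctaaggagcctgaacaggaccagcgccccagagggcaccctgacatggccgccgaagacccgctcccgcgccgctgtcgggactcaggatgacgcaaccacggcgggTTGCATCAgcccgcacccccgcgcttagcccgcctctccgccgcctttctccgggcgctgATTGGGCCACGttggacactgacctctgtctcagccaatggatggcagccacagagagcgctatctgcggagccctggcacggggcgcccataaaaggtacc

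The Hspa5 window (chr2:34771840-34772139, plus strand) held a UPRE core and, nearer to the start site, an ERSE that began at base -65 counted from the start. The Hsp90b1 window (chr10:86705395-86705694, minus strand) held 2 ERSE copies, one on each strand. In the Creld2 window (chr15:88819396-88819695, plus strand) the ERSE lay on the opposite strand, so the capitals show its reverse complement, as they do for the second ERSE of Hsp90b1. The Herpud1 window (chr8:94386179-94386478, plus strand) held an ERSE-II and, upstream of it, a composite element on the opposite strand, again shown as its reverse complement. No 2 matches overlapped. For Xbp1, Atf4, Ddit3, Dnajb9, Sdf2l1 and Pdia4 these letters were not in the window. A match describes letters only, and no binding was measured here.

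Total counts lay between 16996494 and 48958909 in 17 libraries, but FcgRIIb knockout PBS replicate 2 held 719494. In that library 3 counts equal 4.17 CPM (counts scaled to a common depth), compared with 0.0613 to 0.177 CPM in the others, and it is called the shallow library. Clec7a stood at 0.247 to 4.05 CPM in the Dectin-1 knockout libraries against 360.4 to 956 CPM elsewhere. Fcgr2b stood at 130 to 250 CPM in the FcgRIIb knockout libraries against 208 to 318 CPM elsewhere, so its level did not separate the genotypes. The monocyte markers fixed for this check were present in each library, with 25107 to 44298 CPM over 12 genes, led by Lyz2 (mean 22479 CPM), Csf1r (2438 CPM) and Cx3cr1 (1046 CPM). Levels below are CPM scaled by TMM (trimmed mean of M values), are listed by replicate, and are bulk levels, in which a change in the number of cells of a type and a change in RNA per cell cannot be told apart.

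No unfolded protein response gene passed the test in any comparison. The quasi-likelihood F-test of edgeR called 0 of the 10 genes at a Benjamini-Hochberg adjusted p under 0.05 in each of the 10 comparisons made, and DESeq2 also called 0 in each. At an unadjusted p under 0.05 edgeR held 1 gene in 1 comparison (Ddit3, Dectin-1 knockout against WT under IVIg) and DESeq2 held 0. Among all 17040 genes the called share was small too. It was 0.00587% for IVIg against PBS in WT and 0% in Dectin-1 knockout, in FcgRIIb knockout and for the mean of the 3 genotypes. For Dectin-1 knockout against WT it was 0.0411% under PBS and 0.0528% under IVIg. For FcgRIIb knockout against WT it was 0% under PBS and 0.0117% under IVIg, and it was 0% for both differences of the IVIg effect between a knockout and WT. The share of all genes at an unadjusted p under 0.05 was 2.52%, 3.26%, 3.19% and 2.31% for IVIg against PBS in WT, Dectin-1 knockout, FcgRIIb knockout and their mean. It was 4.05% and 3.45% for Dectin-1 knockout against WT under PBS and IVIg, and 9.65% and 5.44% for FcgRIIb knockout. Nearly all genes of these libraries were likewise not called, so a count of 0 does not set these 10 genes apart.

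**Figure D1:**
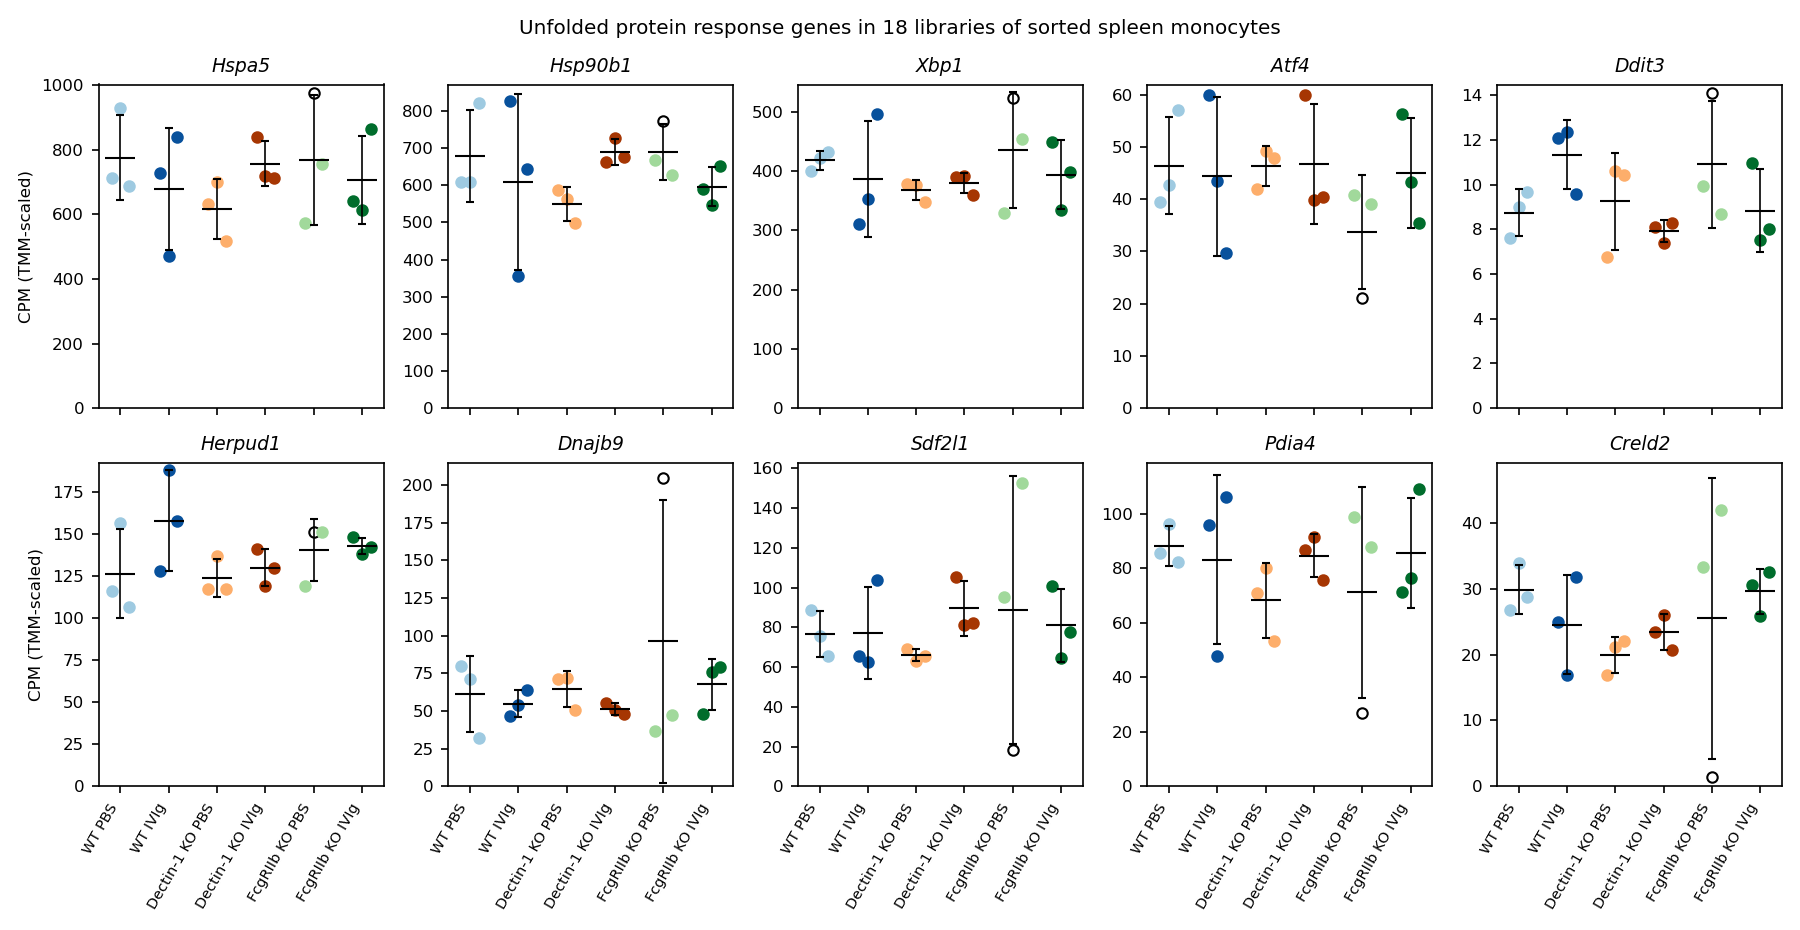
Level of each of the 10 genes (CPM, TMM-scaled, linear axes from 0) in the 18 libraries by group; points are libraries, bars the group mean and its SD (n = 3), and open circles mark the shallow library. The bars of Creld2, Sdf2l1 and Dnajb9 are wide in FcgRIIb knockout PBS, where the shallow library lies at 1.41, 18.4 and 205 CPM.

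Hspa5 (ENSMUSG00000026864; GRCm39 chromosome 2, 34661982 to 34667559) encodes BiP, the Hsp70 chaperone of the ER that also holds the sensors inactive. Under PBS it measured 712, 929 and 687 CPM in WT, 631, 700.3 and 516 CPM in Dectin-1 knockout and 573, 977 and 756 CPM in FcgRIIb knockout. Under IVIg it measured 727, 471 and 840.1 CPM in WT, 838, 719 and 713 CPM in Dectin-1 knockout and 640.4, 614 and 865 CPM in FcgRIIb knockout. The lowest value was in WT IVIg replicate 2 and the highest in the shallow library, and the groups compared overlapped except that all 3 Dectin-1 knockout mice given IVIg lay above all 3 given PBS. Over the 3 genotypes the fitted log2 difference of IVIg from PBS was 0.00 ± 0.14 (SE, edgeR, adjusted p = 1), with a 95% interval of -0.29 to 0.30.

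Hsp90b1 (ENSMUSG00000020048; chromosome 10, 86526073 to 86541373, minus strand) encodes GRP94, the Hsp90 chaperone of the ER that Toll-like receptors and integrins need. Its PBS values were 608, 608 and 821 CPM in WT, 587, 563 and 498 CPM in Dectin-1 knockout and 669, 772 and 627 CPM in FcgRIIb knockout. Its IVIg values were 828, 356 and 643 CPM in WT, 663, 728 and 675 CPM in Dectin-1 knockout and 591, 547 and 651 CPM in FcgRIIb knockout. WT IVIg replicate 2 was again the lowest library, and WT IVIg replicate 1 was the highest. The exons of Hsp90b1 share 415 bases with the transcript 1810014B01Rik on the other strand, and the counting used no strand, so reads there count for both.

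Pdia4 (ENSMUSG00000025823; chromosome 6, 47773075 to 47790364, minus strand) is a protein disulfide isomerase of the ER, also known as ERp72. It measured 85.8, 96.4 and 82.5 CPM in WT, 71.1, 80.3 and 53.3 CPM in Dectin-1 knockout and 98.9, 26.8 and 87.7 CPM in FcgRIIb knockout under PBS. The IVIg libraries gave 95.9, 47.7 and 106 CPM in WT, 86.8, 91.4 and 75.9 CPM in Dectin-1 knockout and 71.5, 76.6 and 109 CPM in FcgRIIb knockout. The shallow library was the lowest, on 19 counts, and WT IVIg replicate 2 was the lowest of the other 17 libraries.

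Creld2 (ENSMUSG00000023272; chromosome 15, 88703849 to 88710886) encodes an ER-resident protein with EGF-like repeats that takes part in folding of disulfide-bonded proteins. In the PBS groups it stood at 26.7, 34.0 and 28.8 CPM in WT, 16.9, 21.1 and 22.0 CPM in Dectin-1 knockout and 33.2, 1.41 and 42.0 CPM in FcgRIIb knockout. In the IVIg groups it stood at 25.003, 16.8 and 31.8 CPM in WT, 23.5, 26.1 and 20.7 CPM in Dectin-1 knockout and 30.6, 25.9 and 32.5 CPM in FcgRIIb knockout. The value of 1.41 CPM in the shallow library rests on 1 count, for which the exact 95% Poisson interval, covering counting error only, runs from 0.0357 to 7.87 CPM and does not reach the levels of the other libraries.

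Sdf2l1 (ENSMUSG00000022769; chromosome 16, 16948002 to 16950247, minus strand) encodes an ER protein that works with a J-domain co-chaperone in the BiP cycle. Its levels under PBS were 88.6, 75.8 and 65.5 CPM in WT, 69.1, 63.0 and 65.5 CPM in Dectin-1 knockout and 95.1, 18.4 and 152 CPM in FcgRIIb knockout. Under IVIg they were 65.5, 62.4 and 103.8 CPM in WT, 105.5, 81.2 and 82.0 CPM in Dectin-1 knockout and 101, 64.7 and 77.6 CPM in FcgRIIb knockout. Both the lowest and the highest of the 18 values came from the FcgRIIb knockout PBS group, the lowest on 13 counts in the shallow library.

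Dnajb9 (ENSMUSG00000014905; chromosome 12, 44252342 to 44257109, minus strand) encodes ERdj4, a J-domain partner of BiP that restrains IRE1. PBS libraries held 79.8, 71.4 and 32.2 CPM in WT, 71.3, 71.9 and 50.4 CPM in Dectin-1 knockout and 36.7, 205 and 47.4 CPM in FcgRIIb knockout. IVIg libraries held 46.5, 53.9 and 64.1 CPM in WT, 55.4, 50.4 and 48.1 CPM in Dectin-1 knockout and 48.1, 75.8 and 79.1 CPM in FcgRIIb knockout. Here the shallow library was the highest, on 145 counts (exact 95% Poisson interval 173 to 241 CPM), and the other 17 libraries lay between 32.2 and 79.8 CPM.

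Herpud1 (ENSMUSG00000031770; chromosome 8, 95113066 to 95122005) encodes a membrane protein that helps assemble the ubiquitin ligase complex of ER-associated degradation, the removal of misfolded proteins. It measured 116, 156 and 107 CPM in WT PBS, 117, 137 and 117 CPM in Dectin-1 knockout PBS and 119, 151 and 151 CPM in FcgRIIb knockout PBS. After IVIg the values were 128, 188 and 158 CPM in WT, 141, 119 and 129.8 CPM in Dectin-1 knockout and 148, 138 and 142 CPM in FcgRIIb knockout. WT IVIg replicate 2, the lowest library for Hspa5 and Hsp90b1, was the highest for Herpud1. Herpud1 also had the smallest spread within groups of the 10 genes, an SD of 0.20 on the log2 CPM scale.

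Xbp1 (ENSMUSG00000020484; chromosome 11, 5470659 to 5475893) encodes the transcription factor made after splicing by IRE1. Its PBS levels were 399.7, 422 and 432 CPM in WT, 379, 377 and 348 CPM in Dectin-1 knockout and 329.8, 524 and 454 CPM in FcgRIIb knockout. Its IVIg levels were 311, 353 and 497 CPM in WT, 389, 391 and 360.2 CPM in Dectin-1 knockout and 449.8, 334 and 398 CPM in FcgRIIb knockout. The 6 Dectin-1 knockout libraries lay within 348 to 391 CPM, inside the range of the other groups. Counts per gene add the spliced and unspliced messages, so the activity of IRE1 was not measured.

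Atf4 (ENSMUSG00000042406; chromosome 15, 80139385 to 80141742) encodes the transcription factor that PERK signalling induces mainly through translation, a step that RNA levels do not show. It stood at 39.6, 42.8 and 57.0 CPM in WT PBS, 41.9, 49.3 and 47.8 CPM in Dectin-1 knockout PBS and 40.8, 21.2 and 39.1 CPM in FcgRIIb knockout PBS. The IVIg groups held 60.01, 43.5 and 29.6 CPM in WT, 59.9, 39.8 and 40.4 CPM in Dectin-1 knockout and 56.3, 43.4 and 35.4 CPM in FcgRIIb knockout. The shallow library was the lowest, on 15 counts, and the groups overlapped in each comparison.

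Ddit3 (ENSMUSG00000025408; chromosome 10, 127126643 to 127132157) encodes CHOP, a transcription factor downstream of Atf4 that is linked to cell death under prolonged stress. PBS values were 7.59, 8.98 and 9.66 CPM in WT, 6.76, 10.6 and 10.4 CPM in Dectin-1 knockout and 9.92, 14.1 and 8.69 CPM in FcgRIIb knockout. IVIg values were 12.1, 12.4 and 9.59 CPM in WT, 8.10, 7.37 and 8.30 CPM in Dectin-1 knockout and 10.99, 7.53 and 8.01 CPM in FcgRIIb knockout. All 3 WT mice given IVIg lay above all 3 Dectin-1 knockout mice given IVIg. The second Ddit3 identifier (ENSMUSG00000116429) is a 105-base model whose 105 bases all lie in exons of the first, so its reads count for both; it held 0.433 to 4.24 CPM and is not counted as a separate gene. Ddit3 also shares 68 exon bases with Mars1 on the other strand.

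Levels of different genes were compared per length, as the mean CPM per kilobase of exon over the 17 deeper libraries. The ER chaperones led, with Hspa5 at 166 ± 29.0 (SD, n = 17) and Hsp90b1 at 156 ± 27.6, which places them above 97.8% and 97.7% of the tested genes. The order of these neighbours was not settled by the libraries, since Hspa5 was the higher in 12 of 17. Xbp1 followed at 120.0 ± 15.3, below Hsp90b1 in 16 of 17 libraries. Sdf2l1 at 75.3 ± 20.9 and Herpud1 at 58.3 ± 8.76 came next, with Sdf2l1 the higher in 14 of 17. Pdia4 stood at 34.7 ± 6.93, below Herpud1 in 17 of 17 libraries, and above Dnajb9, which stood at 22.7 ± 5.82, in 16 of 17. Creld2 (19.7 ± 4.86) and Atf4 (19.1 ± 3.71) were not distinct, with Creld2 the higher in 8 of 17 libraries. Ddit3 was the lowest at 5.39 ± 0.973 and below Atf4 in 17 of 17 libraries, yet still above 59.9% of the tested genes.

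**Figure D2:**
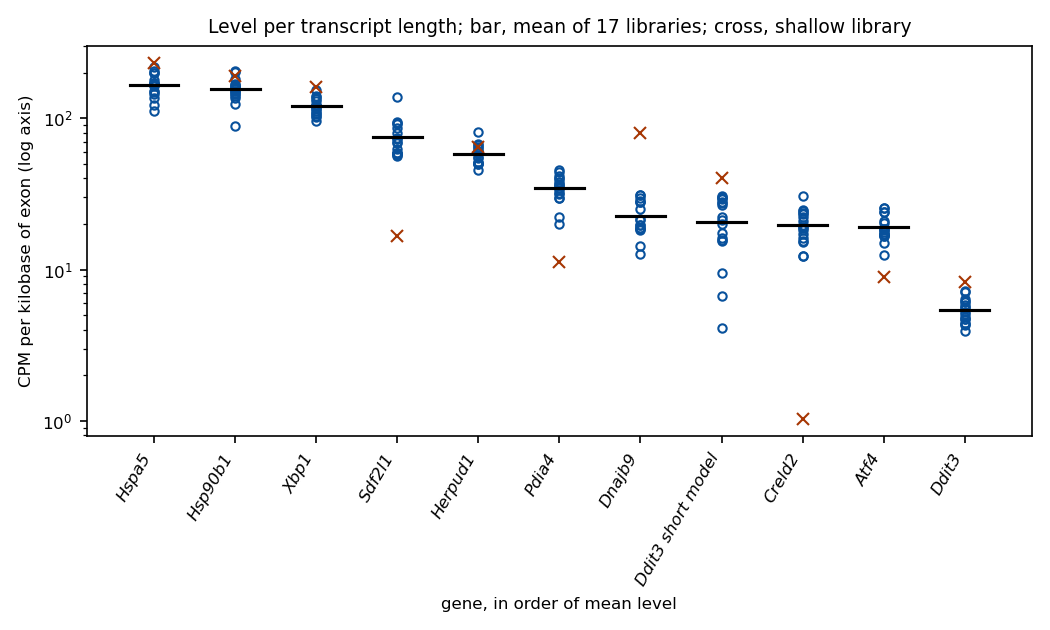
Level per kilobase of exon (CPM per kilobase, log axis) of the 10 genes and of the short Ddit3 model, in order of their mean; circles are the 17 deeper libraries, bars their mean and crosses the shallow library. Hspa5 and Hsp90b1 overlap at the top (means 166 and 156), and Ddit3 lies lowest (mean 5.39).

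The question the series' title poses is whether Dectin-1 and FcgRIIb alter how IVIg reprograms monocytes, which for these genes means IVIg against PBS within a genotype and between genotypes. Averaged over the 3 genotypes, the effect of IVIg was bounded closely. The fitted log2 differences of the 10 genes ran from -0.13 ± 0.24 for Dnajb9 to 0.15 ± 0.11 for Herpud1 (SE, edgeR, adjusted p = 1 for both), with 6 higher and 4 lower. Their median was 0.00 (0.02 over all tested genes). The 95% intervals of all 10 genes lay within a 2-fold difference and those of 9 within 1.5-fold; the exception was Dnajb9, at -0.63 to 0.37.

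In WT mice 3 of the 10 genes were higher and 7 lower with IVIg, none past the test, with a median log2 difference of -0.10 against 0.01 over all genes. The largest differences were those of Ddit3 (0.37 ± 0.24, 95% interval -0.12 to 0.87) and Herpud1 (0.32 ± 0.19, -0.08 to 0.72), each with an adjusted p of 1 in edgeR. The chaperones Hspa5 and Hsp90b1 were 0.19 and 0.16 lower on the log2 scale, and without WT IVIg replicate 2 the value of Hsp90b1 was 0.12 higher instead. No member had groups that did not overlap, against 6.33% of all genes.

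In Dectin-1 knockout mice 7 of 10 were higher with IVIg and 3 lower, with a median of 0.15 (0.02 over all genes). The 3 IVIg mice lay above the 3 PBS mice for Hspa5 (0.30 ± 0.24, 95% interval -0.21 to 0.81), Hsp90b1 (0.33 ± 0.24, -0.18 to 0.83) and Sdf2l1 (0.44 ± 0.31, -0.21 to 1.09), adjusted p = 1 for each in edgeR. Groups that did not overlap in this direction occurred for 4.37% of all genes. Of the cytosolic heat shock genes 10 of 11 were higher with IVIg in these mice, with a median of 0.49, and the list summed to 3315 to 3847 CPM with PBS and 4266 to 5753 CPM with IVIg; their part in the ER chaperone values was not tested. The 10 neutrophil markers summed to 661.5, 1452 and 126 CPM in Dectin-1 knockout IVIg replicates 1, 2 and 3, against 127 to 165 CPM with PBS. The 10 B cell markers were all higher with IVIg (median 1.61, 4 at an unadjusted p under 0.05 in edgeR, 0 called), and they summed to 31.5 to 45.6 CPM with PBS and 27.8 to 102 CPM with IVIg. The part of either cell type in the member values was not tested.

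In FcgRIIb knockout mice 4 of 10 were higher with IVIg and 6 lower, with a median of -0.11 against 0.01 over all genes. Sdf2l1 had the largest difference, -0.39 ± 0.32 (95% interval -1.06 to 0.28, edgeR adjusted p = 1), and without FcgRIIb knockout PBS replicate 3 it was 0.07. Dnajb9 had a fitted value of 0.10 ± 0.45 with the widest interval, -0.83 to 1.04, and its sign was not settled. Its group means lay the other way, at 96.3 ± 94.1 CPM with PBS and 67.7 ± 17.02 CPM with IVIg (SD, n = 3 each), DESeq2 gave -0.54 and the legacy quasi-likelihood fit of edgeR -0.42. With a library left out it ran from -0.33 (without PBS replicate 1) to 0.69 (without the shallow library). No member had groups that did not overlap, against 7.04% of all genes.

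**Figure D3:**
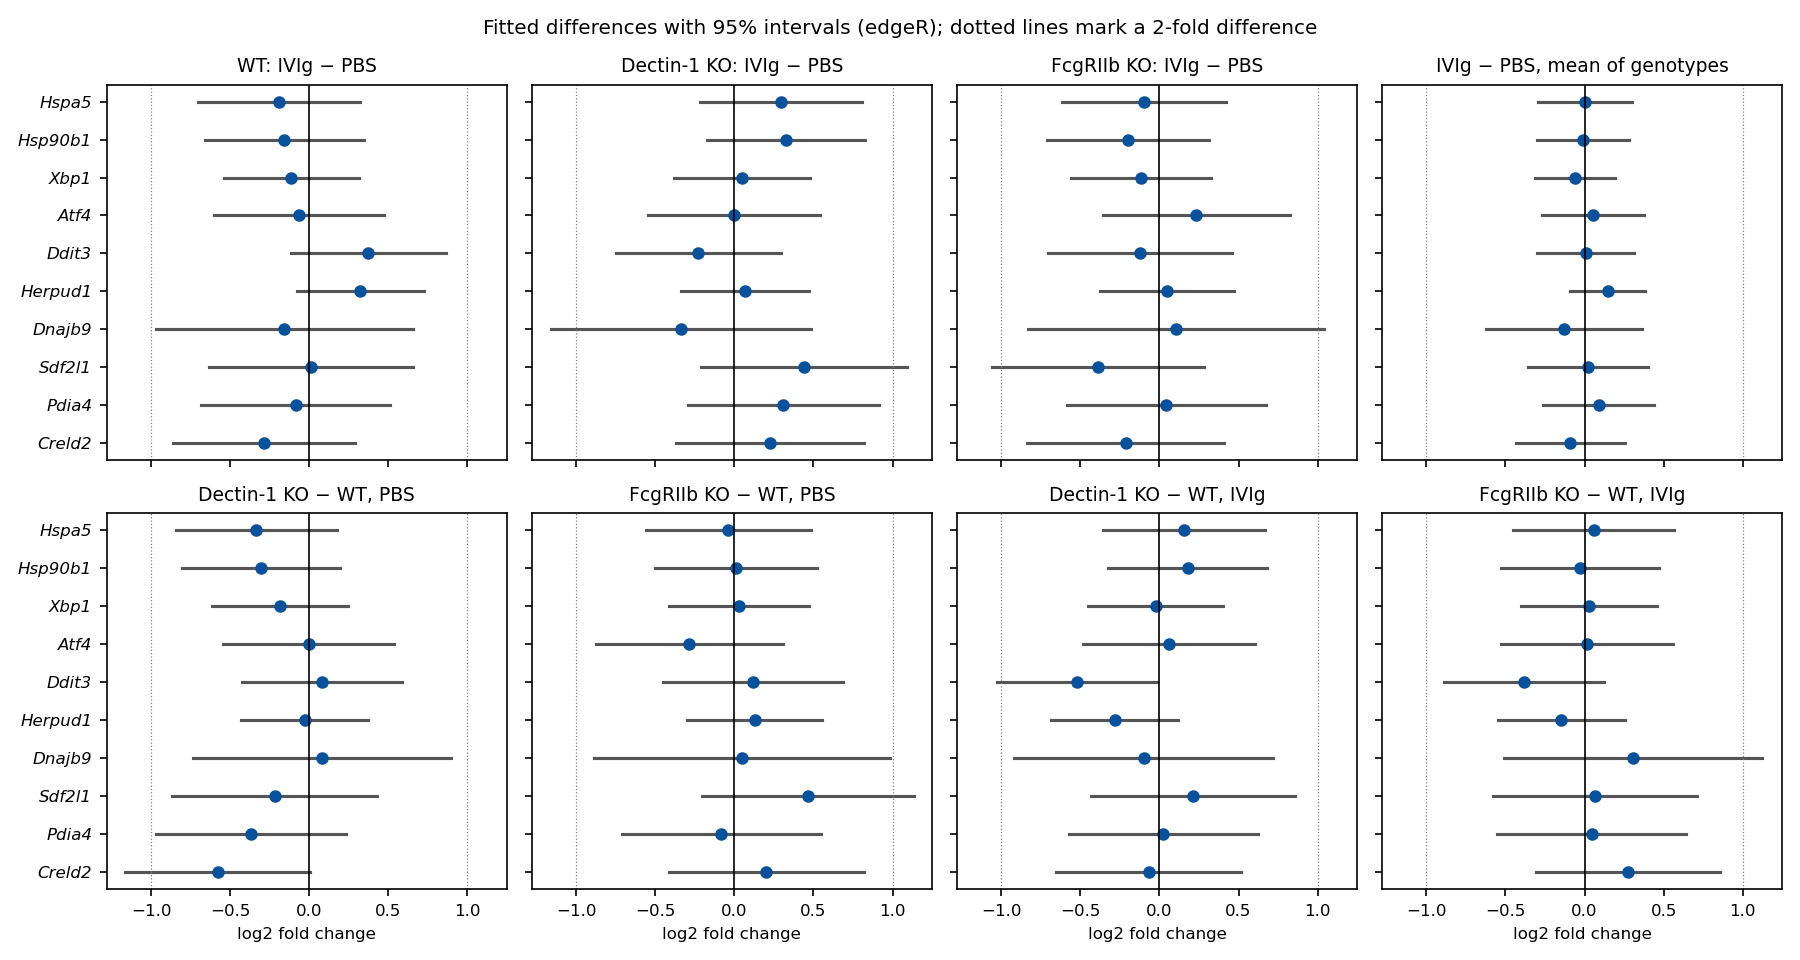
Fitted log2 fold changes (points) with 95% intervals (lines) from edgeR for the 10 genes in 8 comparisons; the solid line marks no difference and dotted lines a 2-fold difference. In the panel for the mean of genotypes all 10 intervals lie inside the dotted lines, and the interval of Ddit3 for Dectin-1 knockout against WT under IVIg (-1.03 to -0.02) is the one that does not reach 0.

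Whether the IVIg effect itself differed between a knockout and WT was tested directly, and no member passed (edgeR; 0 of 10 at an unadjusted p under 0.05 for either knockout, against 3.75% and 2.86% of all genes). For Dectin-1 knockout the differences of the IVIg effect were 0.49 ± 0.35 for Hspa5, 0.48 ± 0.34 for Hsp90b1 and 0.51 ± 0.40 for Creld2 on the log2 scale, and -0.60 ± 0.34 for Ddit3 (adjusted p = 0.998 for each). The intervals were wide, from -0.23 to 1.21 for Hspa5 and from -1.32 to 0.12 for Ddit3, so that a 2-fold difference lay inside both of them. For FcgRIIb knockout they ran from -0.50 ± 0.36 for Ddit3 to 0.30 ± 0.38 for Atf4 (adjusted p = 1).

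Between genotypes under PBS, Dectin-1 knockout libraries held 8 of the 10 genes at a lower and 2 at a higher level than WT, with a median log2 difference of -0.20 against -0.02 over all genes. Creld2 came nearest to the threshold, at -0.58 ± 0.28 (95% interval -1.16 to 0.01, edgeR adjusted p = 0.909), with 16.9 to 22.0 CPM in the knockout and 26.7 to 34.0 CPM in WT. The groups also did not overlap for Hsp90b1 (-0.31 ± 0.24), Xbp1 (-0.18 ± 0.20) and Pdia4 (-0.37 ± 0.29), all lower in the knockout and each with an adjusted p of 0.909. These 4 genes compare with 8.4% of all genes whose groups did not overlap in that direction. The immediate early and cytosolic heat shock lists were also mostly lower in the knockout libraries. The 18 tested targets of ATF4 were not, with 11 higher and 7 lower (median 0.04). Of the 16 other ER chaperones and folding enzymes 7 were higher and 9 lower (median -0.05). Of the 16 genes of ER-associated degradation 9 were higher and 7 lower (0.04), and of the 16 of ER translocation 11 and 5 (0.08). The 10 sensors and processing factors had 6 higher and 4 lower (0.04). Of 12 immediate early genes, which are induced quickly by stimulation or handling, 11 were lower (median -0.44, 3 at an unadjusted p under 0.05 in edgeR, 0 called), led by Egr1 at -3.04 ± 0.76 (edgeR adjusted p = 0.563), and they summed to 931 to 1213 CPM against 1239 to 1551 CPM in WT. Of 11 cytosolic heat shock genes 8 were lower (median -0.41), led by Hsph1 at -1.78 ± 0.56 (edgeR adjusted p = 0.909), with sums of 3315 to 3847 CPM against 3164 to 5189 CPM. The part of handling or stress in the member values was not tested. Since the Dectin-1 knockout PBS mice enter both this comparison and that of IVIg with PBS within the genotype, the low values in the one and the high values in the other share those 3 libraries.

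Under IVIg the Dectin-1 knockout held 5 genes higher and 5 lower than WT, with a median of 0.00. Ddit3 was lower in 3 of 3 knockout mice, with 7.37 to 8.30 CPM against 9.59 to 12.4 CPM in WT, a log2 difference of -0.52 ± 0.24 (95% interval -1.03 to -0.02). Its unadjusted p in edgeR was 0.0441 and its adjusted p was 1, and 3.45% of all genes had an unadjusted p under 0.05 in this comparison. Groups that did not overlap with the knockout lower occurred for 3.7% of all genes. Atf4, upstream of Ddit3, differed by 0.06 ± 0.26. The neutrophil markers summed to 126 to 1452 CPM in these knockout mice and to 81.0 to 125 CPM in WT, with Retnlg called (4.27 ± 0.79, edgeR adjusted p = 0.043). The 10 B cell markers were all higher in the knockout (median 1.58, 0 called), and the immediate early genes summed to 1032 to 1221 CPM against 1237 to 1301 CPM in WT. The part of these in the value of Ddit3 was not tested.

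FcgRIIb knockout mice differed from WT under PBS by log2 values from -0.28 ± 0.28 (Atf4) to 0.46 ± 0.32 (Sdf2l1), with 7 higher and 3 lower and a median of 0.04 against -0.05 over all genes (edgeR, adjusted p = 0.594 for Sdf2l1 and 0.7 for Atf4). The value of Sdf2l1 rested on FcgRIIb knockout PBS replicate 3, at 152 CPM, and without that library it was -0.01. In the same library the deviation of genes from their mean was lower for genes with longer exons (Spearman -0.65 over 5288 genes, a description across genes, range -0.65 to 0.58 over the libraries). Sdf2l1 and Creld2 have the shortest exon lengths of the 10 genes, 1108 and 1366 bases, and with the length trend of each library removed their values were -0.14 and -0.33. The same setting gave -0.32 for Ddit3 (1713 bases) and -0.20 for Herpud1 (2333 bases). Without the shallow library the value of Sdf2l1 was 0.69. The part of gene length in these values was not tested. Under IVIg, FcgRIIb knockout differed from WT by values from -0.38 ± 0.24 (Ddit3, 95% interval -0.89 to 0.12) to 0.31 ± 0.39 (Dnajb9, -0.51 to 1.12), with edgeR adjusted p values of 0.938 and 0.942. In neither comparison did a member have groups that did not overlap, against 11.6% and 10.3% of all genes.

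Plasma cells hold high levels of the same genes, so their markers were read beside these comparisons. The 13 tested plasma cell markers summed to 1395 to 2859 CPM in FcgRIIb knockout PBS against 296 to 420 CPM in WT PBS, and to 1009 to 4078 CPM against 388 to 1026 CPM under IVIg. Jchain, which encodes the immunoglobulin joining chain, ranged from 2.26 to 703 CPM over the libraries, and Mzb1, an ER cofactor of immunoglobulin assembly, from 0 to 23.9 CPM. Of the 13 markers 0 to 3 were at 0 in the deep libraries and 6 in the shallow one. For FcgRIIb knockout against WT under IVIg the immunoglobulin gene Ighg2b was called (5.005 ± 0.83, edgeR adjusted p = 0.042). In the same comparison 9 of 10 T cell markers (median 1.45) and 8 of 8 natural killer cell markers (median 1.72) were higher, with 7 and 4 at an unadjusted p under 0.05 in edgeR and 0 called. Markers of T cells (11.05 to 63.7 CPM), B cells (20.1 to 102 CPM), natural killer cells (0 to 18.3 CPM) and erythroid cells (4.59 to 51.0 CPM) summed to low levels, and those of dendritic cells (254 to 569 CPM) and red pulp macrophages (803 to 1257 CPM) were present in each library. The part of these cells in the member levels was not tested.

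The genes differed in how much mice of the same group varied. Within groups the SD of log2 CPM was 1.13 for Creld2, 0.70 for Sdf2l1, 0.66 for Dnajb9 and 0.53 for Pdia4, against a median of 0.43 over genes of at least 10 CPM. Without the shallow library the same SDs were 0.26, 0.30, 0.39 and 0.34, against a median of 0.29. Xbp1 (0.21) and Herpud1 (0.20) were then the least variable and Dnajb9 the most. WT IVIg replicate 2 stood apart among the deep libraries. It was the lowest of the 17 for the ER folding genes Hspa5, Hsp90b1, Pdia4, Creld2 and Sdf2l1, and the highest for Herpud1 and Ddit3. For 2 of them the next library lay close: Creld2 held 16.84 against 16.91 CPM in Dectin-1 knockout PBS replicate 1. Sdf2l1 held 62.4 against 63.0 CPM in Dectin-1 knockout PBS replicate 2. The 10 genes summed to 1605 CPM there, the least of any library, and to 2711 CPM in the shallow library, the most.

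**Figure D4:**
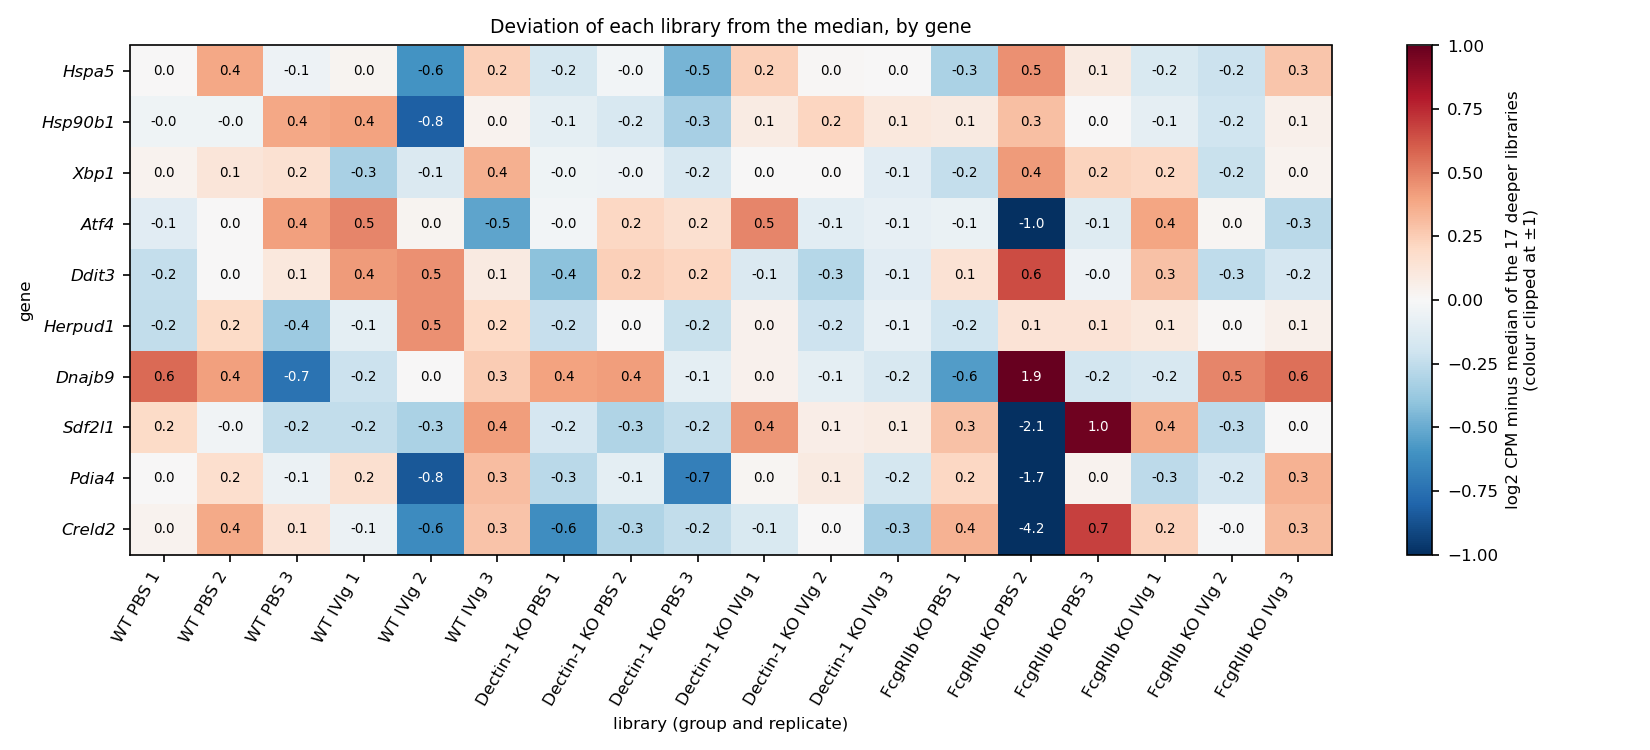
Deviation of each library (columns) from the median of the 17 deeper libraries for the 10 genes (rows), in log2 CPM, with colour clipped at 1 in either direction and the value printed in each cell. The shallow library (FcgRIIb KO PBS 2) is low in Creld2, Sdf2l1, Pdia4 and Atf4 and high in Dnajb9, and WT IVIg 2 is low in the 5 ER folding genes.

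The genes were then compared with each other across the 18 libraries, as 45 pairs of log2 CPM profiles with 100000 permutations a pair and Benjamini-Hochberg adjustment over the pairs. The permutations exchanged libraries across groups, so differences between groups can enter these correlations and their p values. Of the 45 pairs 6 passed at 0.05, and 3 of them joined Sdf2l1, Pdia4 and Creld2. By rank only Pdia4 with Creld2 passed. The other 3 were Hspa5 with Hsp90b1 (r = 0.63, and 0.25 without the 2 farthest libraries), Hspa5 with Xbp1 (0.62 and 0.60) and Atf4 with Dnajb9 (-0.71 and -0.40). Their rho values were 0.54, 0.60 and -0.43 (adjusted permutation p = 0.196, 0.151 and 0.384). Pdia4 and Creld2 gave a Pearson r of 0.87 (adjusted permutation p = 0.00338) and a Spearman rho of 0.77 (adjusted permutation p = 0.0108), and an r of 0.56 without the 2 libraries farthest from the median. Sdf2l1 and Creld2 gave an r of 0.90 (adjusted permutation p = 0.00338) but a rho of 0.63 (adjusted permutation p = 0.151), and an r of 0.49 without the 2 farthest libraries. Leaving out the shallow library reduced the passing pairs to 3, all with Pdia4, so part of the pooled pattern rests on that library. With group means subtracted 10 pairs passed over 18 libraries and 8 over the 17 deeper ones. The permutations treated the subtracted values as independent, which they are not within a group, so these 2 counts are likely too high. The values of the 3 pairs that follow are from the 17 deeper libraries with no group means subtracted. Pdia4 and Hspa5 had an r of 0.81 and a rho of 0.74 (adjusted permutation p = 0.0054 and 0.031, n = 17 libraries). Without the 2 libraries farthest from the median of Hspa5 the r of that pair was 0.57. Pdia4 with Hsp90b1 had an r of 0.75 and a rho of 0.61 (adjusted permutation p = 0.0178 and 0.162), and an r of 0.54 without the 2 farthest libraries. Pdia4 with Creld2 had an r of 0.67 and a rho of 0.73 (adjusted permutation p = 0.0464 and 0.031), and an r of 0.57 without the 2 farthest.

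The 5 ER folding genes Hspa5, Hsp90b1, Pdia4, Creld2 and Sdf2l1, grouped by role, had positive r values in 10 of their 10 pairs over the 17 deeper libraries (median 0.56, range 0.22 to 0.81), and in 6 of 10 pairs over all 18. With group means subtracted and the shallow library left out, 10 of 10 were positive (median 0.53). Over the 17 libraries, without the 2 farthest from the median of 1 gene of the pair, r ran from 0.10 (Hspa5 with Hsp90b1) to 0.59 (Sdf2l1 with Creld2). The group leaves out Dnajb9, a partner of BiP. Over the 17 libraries its r was 0.30 with Hspa5, 0.10 with Pdia4, -0.35 with Hsp90b1, -0.15 with Sdf2l1 and -0.15 with Creld2. Over all 45 pairs the median r was 0.10 in the 17 libraries, with 26 positive. Herpud1 and Hsp90b1 had an r of -0.57 and a rho of -0.27 over the 17 libraries, which did not pass (adjusted permutation p = 0.11 and 0.492). With group means subtracted as well, their r was -0.67 (adjusted permutation p = 0.0216) and their rho -0.54 (adjusted permutation p = 0.118), with an r of -0.44 without the 2 farthest libraries. Those permutations treated the subtracted values as independent, which they are not within a group, so their p values are likely too small.

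**Figure D5:**
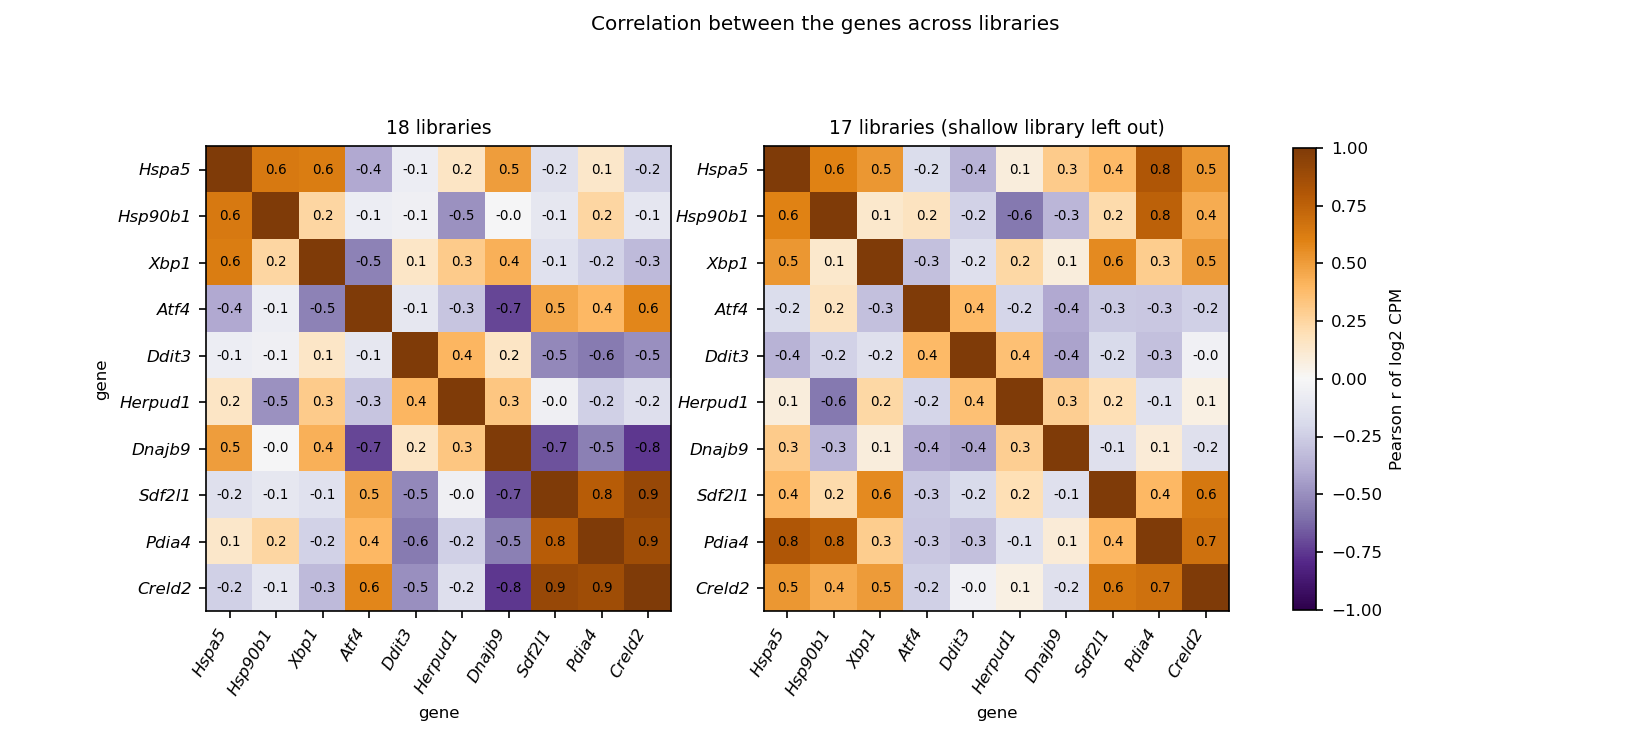
Pearson correlation (colour and printed value) of log2 CPM between the 10 genes across all 18 libraries (left) and across the 17 deeper libraries (right). Pdia4, Creld2 and Sdf2l1 form the darkest block on the left, and on the right the values of Pdia4 with Hspa5 and Hsp90b1 reach 0.81 and 0.75.

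Among 8648 other genes with a mean of at least 10 CPM, the profiles most like that of Hspa5 over 18 libraries were those of Srsf10 (r = 0.90), Hsp90aa1 (0.83), Chordc1 (0.80), Morf4l2 (0.78) and Mat2a (0.75). Hsp90aa1 encodes a cytosolic Hsp90 chaperone and Srsf10 a splicing factor. Those most like the mean of the 10 genes were Tardbp (0.80), Manf (0.78), Sec23b (0.74), Calr (0.70) and Arsi (0.69). Manf and Calr encode ER proteins that assist folding and Sec23b a subunit of the coat of vesicles that leave the ER. Over the 17 deeper libraries Manf led that list (0.85) and Dnajb11, the J-domain partner of Sdf2l1, entered it (0.81). These genes are the top of a ranking over all candidates and carry no test.

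The rest of the pathway was read from lists fixed for this comparison, with 87 tested genes in 6 lists, and edgeR and DESeq2 each called 0 of them in all 10 comparisons. The 10 sensors and processing factors, the 16 other ER chaperones and folding enzymes, the 16 genes of ER-associated degradation, the 16 of ER translocation and secretory traffic, the 18 targets of ATF4 and the 11 cytosolic heat shock genes each contributed. For IVIg against PBS over the 3 genotypes 58 of the 87 were higher and 29 lower, with a median log2 difference of 0.05 against 0.02 over all genes. In that comparison 1 of 87 had an unadjusted p under 0.05, against 2.31% of all genes. It was Ppp1r15a, which encodes the phosphatase subunit that ends PERK signalling, at 0.40 ± 0.18 (edgeR adjusted p = 1), and it had 0 counts in the shallow library, where 3 counts equal 4.17 CPM.

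For FcgRIIb knockout against WT under PBS 12 of the 87 (13.8%) had an unadjusted p under 0.05, against 9.65% of all genes. The translocation list was higher in 13 of 16 genes with a median of 0.36, while 46.8% of all genes were higher. It was led by Ssr4, a subunit of the translocon-associated complex, at 1.15 ± 0.36 (edgeR adjusted p = 0.503). The list summed to 1575 to 2729 CPM in the knockout, the most in the shallow library, against 1291 to 1938 CPM in WT. Ppib, an ER prolyl isomerase, was 0.84 ± 0.27, and Ern1, which encodes IRE1 alpha, was -0.95 ± 0.36, both with an adjusted p of 0.503 in edgeR. The Spearman value of exon length with deviation from the mean (5288 genes) was 0.14, 0.00 and -0.65 in these knockout libraries. In WT PBS it was 0.25, 0.36 and 0.53. Plasma cell markers summed to 1395 to 2859 CPM against 296 to 420 CPM in WT. The part of gene length or plasma cells in these values was not tested. For Dectin-1 knockout against WT under PBS, Edem1, which directs misfolded glycoproteins to degradation, was -0.44 ± 0.17 (edgeR adjusted p = 0.909). In WT mice given IVIg 14 of the 18 targets of ATF4 were higher, with a median of 0.10, led by Aldh18a1, an enzyme of proline synthesis, at 0.55 ± 0.24 (edgeR adjusted p = 1).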

How the data were processed

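The authors deposited raw counts per gene for 18 libraries, made with featureCounts 2.0.2 on Ensembl release 104 per the file headers, with no strand option and each read counted for every gene it overlaps, so overlapping and antisense genes share reads. The kit kept strand, per the labels' protocols. The submitters' processing notes name STAR, edgeR and the build GRCm39, and their edgeR output is not used here. The table also holds 18 columns that fit no sample, which were left aside, and 1492 rows without a symbol, which stayed in the totals.

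Groups are the labelled genotype and treatment. Replicate numbers are in accession order and pair nothing. Some title codes recur in 2 libraries, so only the design text says that the mice are independent. Genes kept by filterByExpr were scaled by TMM, and 1 edgeR 4.0.16 model (R 4.3.3, non-legacy quasi-likelihood F-test) over the 6 groups, with 12 residual degrees of freedom, gave 10 comparisons, each adjusted over all 17040 genes. Standard errors are the log2 difference divided by the root of F. Log2 CPM used a prior count of 2. The test was checked on simulated counts, with the same spread set for every gene and no length trend. That check does not give the power of the test in these data. Correlations and figures were made in Python 3.11.15 (pandas 2.3.3, numpy 2.4.6, matplotlib 3.10.9). DESeq2 1.42.0 and other settings are in the closing section.

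The members, lists, tests and settings were chosen with earlier results of these data known. All 10 members are named. Of the other lists, up to 4 called genes with the smallest p, or up to 2 with the smallest unadjusted p, could be named in a comparison, as could the 5 genes most like Hspa5 and the 5 most like the mean member profile. The likenesses over 17 libraries and the marker values of single libraries were chosen after they were seen.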

Additional observations from a re-analysis of the deposited data

How the results depend on the processing

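No paired analysis was possible because replicate numbers follow accession order and pair no samples. Under 25 alternative settings the number of members called was 0 in all 249 counts, and at most 2 members had an unadjusted p under 0.05. Of 2739 member values 2699 stayed within 1 SE, 19 moved further with the same sign and 21 changed sign by over 1 SE. The settings were DESeq2, RLE size factors, no filter, own groups only (not run for the mean of genotypes, which needs all groups), the legacy fit, removal of the gene length trend, each of the 18 libraries left out in turn and, added after the data were seen, WT IVIg replicate 2 and the shallow library both left out. The cause of each change below was not tested, beyond the libraries that a setting removes.

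Signs changed as follows on the log2 scale; "ran" gives the lowest and highest value over the libraries left out in turn. For IVIg against PBS, Hsp90b1 in WT ran from -0.44 (without WT IVIg replicate 1) to 0.12 (without replicate 2) and was 0.12 without both libraries. The short Ddit3 model in Dectin-1 knockout ran from -0.026 (without IVIg replicate 3) to 1.35 (without PBS replicate 2). In FcgRIIb knockout Dnajb9 was -0.54 with DESeq2 and -0.42 with the legacy fit and ran from -0.33 (without PBS replicate 1) to 0.69 (without PBS replicate 2), and Sdf2l1 ran from -0.62 (without PBS replicate 2) to 0.075 (without PBS replicate 3). For FcgRIIb knockout against WT under PBS, removing the length trend gave -0.32 for Ddit3, -0.20 for Herpud1, -0.14 for Sdf2l1 and -0.33 for Creld2. Dnajb9 there ran from -0.54 (without PBS replicate 2) to 0.48 (without PBS replicate 1) and was -0.54 without both libraries, and Sdf2l1 ran from -0.0068 (without PBS replicate 3) to 0.69 (without PBS replicate 2). For Dectin-1 knockout against WT under IVIg, Hsp90b1 ran from -0.097 (without WT IVIg replicate 2) to 0.46 (without WT IVIg replicate 1) and was -0.098 without both libraries, and Xbp1 ran from -0.16 (without WT IVIg replicate 1) to 0.18 (without replicate 3). For FcgRIIb knockout against WT under IVIg, Hsp90b1 ran from -0.31 (without WT IVIg replicate 2) to 0.25 (without replicate 1), and Pdia4 was -0.24 without both libraries. For the difference of the IVIg effect in FcgRIIb knockout, Dnajb9 was -0.37 with DESeq2 and ran from -0.17 (without PBS replicate 1) to 0.84 (without PBS replicate 2), Sdf2l1 ran from -0.63 (without PBS replicate 2) to 0.064 (without PBS replicate 3) and Pdia4 was -0.32 without both libraries.

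Counts over all genes moved more. For IVIg against PBS in WT, 1 gene was called, and 0 with own groups only, the legacy fit or both libraries left out, and 0 to 1 with a library left out. In Dectin-1 knockout 0 genes became 2 with DESeq2 and 1 with no filter, and 0 to 13 with a library left out, the 13 without Dectin-1 knockout IVIg replicate 3. In FcgRIIb knockout 0 became 13 with DESeq2, and 0 to 1 with a library left out, and for the mean of genotypes 0 became 1 with DESeq2. Dectin-1 knockout against WT under PBS had 7, 14 with DESeq2 and 5 to 10 with a library left out. FcgRIIb knockout against WT under PBS had 0, 175 with DESeq2, 9 with no filter, 9 with own groups only and 0 to 40 with a library left out, the 40 without FcgRIIb knockout PBS replicate 1. Dectin-1 knockout against WT under IVIg had 9, 23 with DESeq2, 16 with no filter, 5 with own groups only and 6 to 28 with a library left out, the 28 without Dectin-1 knockout IVIg replicate 3. FcgRIIb knockout against WT under IVIg had 2, and 1 with RLE size factors, own groups only, the legacy fit, the length trend removed or both libraries left out, and 1 to 6 with a library left out, the 6 without WT IVIg replicate 3. Both differences of the IVIg effect had 0, and 1 each with DESeq2. Correlated pairs numbered 6, 10 with group means subtracted, 3 without the shallow library and 8 with both changes, a setting added after the data were seen. The counts with group means subtracted are likely too high, because the permutations treated the subtracted values as independent. Depth limits the low members in the shallow library, where Creld2 rests on 1 count.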

Other observations

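The 11 cytosolic heat shock genes, which answer protein misfolding outside the ER, summed to 3164 to 5814 CPM over the libraries. Among them Hsph1, an Hsp110 co-chaperone, measured 45.5, 153 and 139 CPM in WT PBS and 134, 21.5 and 102 CPM in WT IVIg. In Dectin-1 knockout it measured 25.3, 52.7 and 19.7 CPM with PBS and 78.7, 138 and 85.2 CPM with IVIg, and in FcgRIIb knockout 82.5, 59.3 and 42.8 CPM with PBS and 38.7, 24.9 and 66.9 CPM with IVIg. The Dectin-1 knockout groups did not overlap, at a log2 difference of 1.62 ± 0.56 (edgeR adjusted p = 1), and 4.37% of all genes had groups that did not overlap in this direction. The difference of the IVIg effect on Hsph1 from that in WT was 2.02 ± 0.77 (edgeR adjusted p = 0.998). In FcgRIIb knockout mice 10 of the 11 heat shock genes were lower with IVIg, with a median of -0.35, and none passed at an unadjusted p under 0.05 in edgeR or was called by DESeq2. WT IVIg replicate 2, the lowest of the 17 deeper libraries for the 5 ER folding genes, held 21.5 CPM of Hsph1 against 134 and 102 CPM in the other mice of its group.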
